A study of Mus musculus with 6 samples.

Results

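The extracellular proteases of the metzincin families and their inhibitors were examined in obstructed kidneys of mice with and without Dkk3. Members were all rows of the authors' deposited table whose symbol begins with Mmp, Adam, Adamts or Timp followed by a digit, ADAMTS-like genes excepted. This gave 66 genes of the 18421 tested, of which 21 were matrix metalloproteinases (MMPs), 23 were ADAMs, 18 were ADAMTS proteases and 4 were TIMPs. Whole kidneys of 3 Dkk3 knockout mice (Dkk3-/-, with C57Bl/6 as the labelled background) and of 3 wild-type C57Bl/6 mice were sequenced, 6 samples in all. Every animal had undergone unilateral ureteral obstruction, which ties off a ureter, and was sampled on day 7, so the wild-type group was obstructed as well. Age, sex, the structure of the Dkk3 allele and the number of backcrosses are not given in the labels, and unobstructed kidneys were not analysed here.

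MMPs are zinc endopeptidases that cleave collagens, gelatin, proteoglycans and other matrix and cell-surface proteins, and most are made as inactive precursors. ADAMs are mainly membrane-bound and release the outer parts of cell-surface proteins, while ADAMTS enzymes are secreted and cut proteoglycans and the ends of procollagens. TIMPs bind the active sites of these enzymes and block them. In the obstructed kidney, interstitial cells, leukocytes and injured tubules are known sources of these proteins, and matrix accumulates in the interstitium while the tubules shrink.

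Among the 66 members, 2 rose in the knockout and none fell. The inhibitor gene Timp1 and the stromelysin gene Mmp3 passed an adjusted p of 0.05 in edgeR's likelihood-ratio test. In the authors' deposited table the share of all genes past this threshold was 1.17% on the higher side, 0.890% on the lower side and 2.06% in either direction, so 2 of 66 lies close to the background. At an unadjusted p under 0.05 in the same test, 6 members were higher and 3 lower, beside 5.91% and 4.71% of all genes. The table holds a log2 fold change, an average level and a test result per gene and no value per sample, so it cannot be seen whether the single mice of both groups overlapped. Where genotype levels are given below, they are those implied by the average CPM, read counts scaled to library size, and the fold change, with both groups weighted equally. Standard errors and 95% intervals were approximated from the likelihood-ratio statistic and carry no separate estimate of the spread between mice. The bulk values also cannot tell fewer cells of a type from less RNA per cell.

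Dkk3 itself was 21.6-fold lower in the knockout, with a log2 fold change of -4.43 and an adjusted p of 2.98e-67 per the authors' deposited table. Its implied level was 2.06 CPM in the knockout against 44.4 CPM in the wild type. Single libraries could not be checked against their labels.

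The promoters of both genes that rose are shown first, because Timp1 and several MMPs are textbook targets of AP-1 and ETS transcription factors. Capitals mark 3 motifs searched on both strands in the 250 bases before each RefSeq start site (GRCm38.p6), namely TGANTCA, an AP-1 motif in which N is any base, the TATA motif TATAAA and the ETS motif AGGAAG. No marked motif overlaps another in these sequences. Timp1 lies on the plus strand of chromosome X, with the shown stretch at chrX:20869916-20870165, and Mmp3 on the plus strand of chromosome 9, with the stretch at chr9:7445572-7445821.
Timp1: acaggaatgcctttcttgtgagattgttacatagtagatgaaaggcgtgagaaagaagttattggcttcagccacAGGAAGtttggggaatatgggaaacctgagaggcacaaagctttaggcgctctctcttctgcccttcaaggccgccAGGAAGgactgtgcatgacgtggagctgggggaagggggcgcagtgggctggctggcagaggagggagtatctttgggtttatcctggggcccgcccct
Mmp3: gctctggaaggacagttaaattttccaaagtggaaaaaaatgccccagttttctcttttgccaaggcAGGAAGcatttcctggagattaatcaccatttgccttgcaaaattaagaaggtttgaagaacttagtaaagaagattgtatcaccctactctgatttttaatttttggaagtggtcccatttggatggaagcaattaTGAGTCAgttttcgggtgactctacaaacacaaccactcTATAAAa

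The Mmp3 stretch holds TGAGTCA 46 to 40 bases before the start and TATAAA 7 to 2 bases before it, and it has a GC content of 37.6%. The Timp1 stretch has a GC content of 54.4%, holds AGGAAG beginning 175 and 99 bases before the start, and has no match to the other 2 motifs in this window. Both promoters therefore share the ETS letters, which occur in 29.5% of all 32851 windows of this length. TGANTCA occurs in 6.75% of all windows and TATAAA in 12.4%. A match is a description of the letters, and factor binding was not measured.

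Timp1 encodes a secreted inhibitor that leukocytes, fibroblasts and injured tubules produce. Its implied level was 63.6 CPM in the knockout and 40.9 CPM in the wild type. In the authors' deposited table its log2 fold change was 0.64 with an adjusted p of 0.0215, and the approximate standard error was 0.18. The knockout level was thus 1.55-fold that of the wild type, with an approximate 95% interval of 1.22 to 1.97. Its gene (ENSMUSG00000001131) spans 20870166 to 20874735 on the plus strand of chromosome X in the GENCODE annotation of GRCm38.

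Mmp3, stromelysin-1, cleaves proteoglycans, laminin and fibronectin and activates other pro-MMPs. It was scarcer, with an implied 7.82 CPM in the knockout and 3.74 CPM in the wild type. In the authors' deposited table the log2 fold change was 1.06 and the adjusted p 0.0338, with an approximate standard error of 0.31. The knockout level was 2.09-fold the wild-type level, with an approximate interval of 1.37 to 3.17, the largest increase among the 45 members at 1 CPM or more. Mmp3 shares 8.39% of its stretches of 50 nt, the read length, with other transcripts, mostly those of Mmp10, and the labels do not say how such reads were assigned. Its gene (ENSMUSG00000043613) spans 7445822 to 7455975 on the plus strand of chromosome 9.

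Both calls depended on the null distribution. With an F distribution of 1 and 14 degrees of freedom in place of the chi-square distribution, no member was called, as against 0.440% of all genes, and the adjusted p was 0.200 for Timp1 and 0.233 for Mmp3. With scores divided by their inflation factor of 1.09, 1.56% of all genes were called and only Timp1 of the members, while Mmp3 had an adjusted p of 0.0578. Timp1 and Mmp3 were the called members under all 5 other rules, which called 3.14% of all genes at an adjusted p under 0.1, 1.73% with a fold change of at least 1.5, 2.52% among genes at 1 CPM or more, 1.42% without chromosome 7 and 2.06% after centring on the median.

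**Figure D1:**
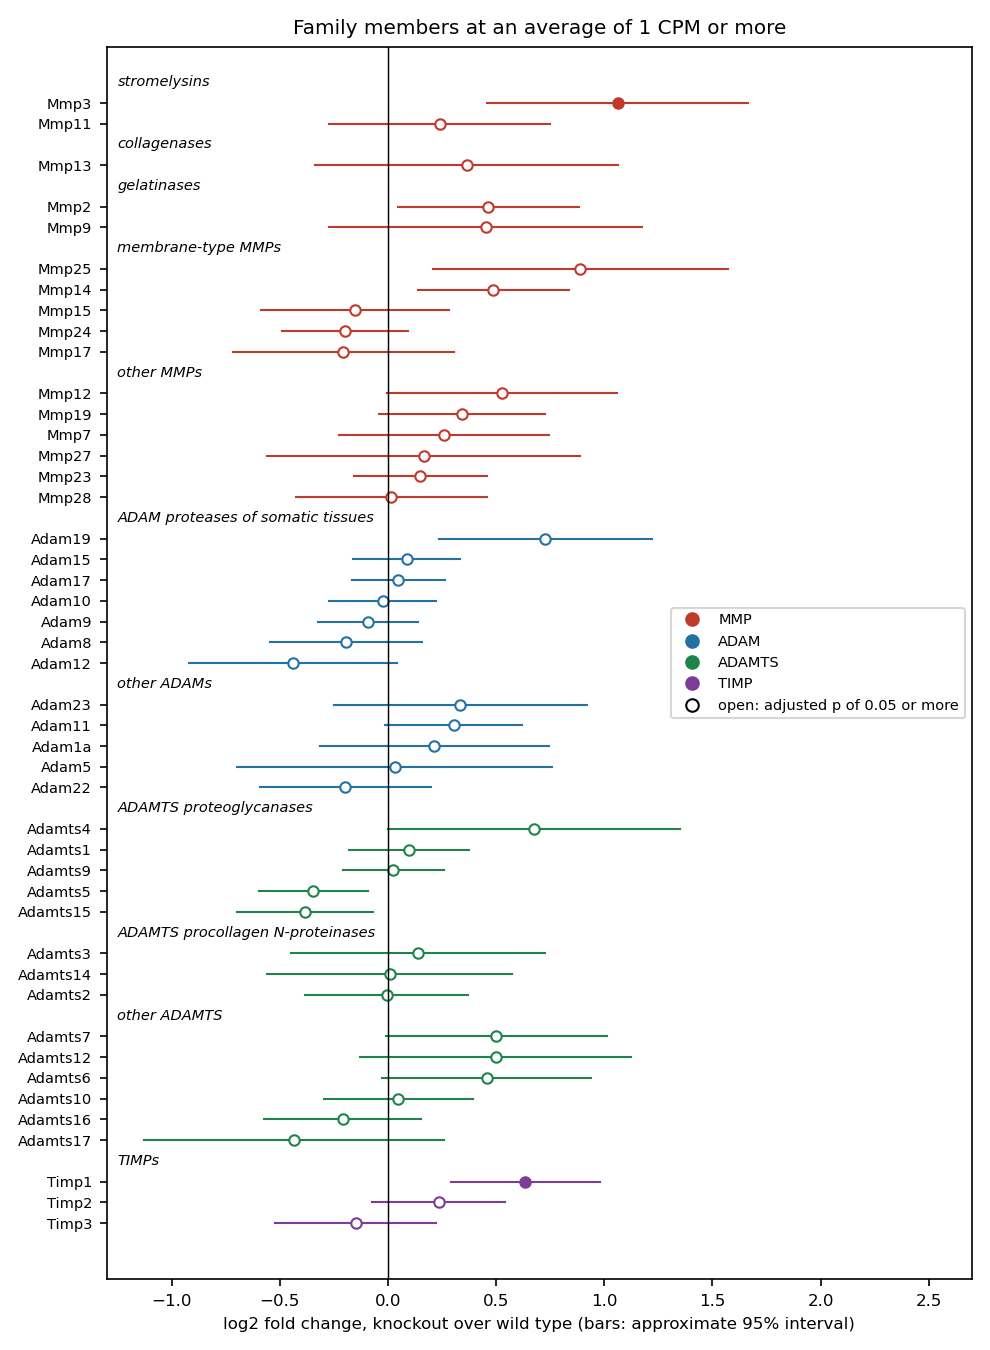
Log2 fold changes (knockout over wild type) of the 45 members at an average of 1 CPM or more, grouped by role, with approximate 95% intervals as bars and filled points for an adjusted p under 0.05. Timp1 at 0.64 and Mmp3 at 1.06 are the only filled points, and 31 of the 45 points lie above 0.

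Across the MMPs most values lay above 0, without passing the threshold apart from Mmp3. Of the 16 MMP genes at 1 CPM or more, 13 were above 0 and 3 below, with a median log2 fold change of 0.30, whereas 52.7% of all genes at that level were above 0 and their median was 0.01. The corresponding counts were 7 of 12 for ADAMs (median 0.04), 9 of 14 for ADAMTS genes (median 0.04) and 2 of 3 for TIMPs (median 0.23). These counts are a description, since genes of a family can vary together from mouse to mouse. The 21 members under 1 CPM, 11 of them ADAMs, had values from -1.99 to 2.66 with wide errors.

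The gelatinases Mmp2 and Mmp9 cut denatured collagen and basement membrane collagen. Mmp2, a product of fibroblasts, had an implied 57.5 CPM in the knockout and 41.7 CPM in the wild type, with a log2 fold change of 0.46 and an adjusted p of 0.365 per the authors' deposited table. Mmp9, which neutrophils and macrophages store or secrete, stood at 0.45 (adjusted p = 0.757 per the authors' deposited table) at an average of 3.87 CPM. The point estimates of both gelatinases were close to each other, but the interval of Mmp9 ran from 0.829-fold to 2.26-fold.

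Mmp14 and Mmp25 had the largest values of the membrane-type enzymes, which act at the cell surface. Mmp14 cleaves fibrillar collagen and activates pro-Mmp2, and at 85.0 CPM it was the MMP gene with the highest average in CPM. Its implied levels were 99.2 CPM in the knockout and 70.8 CPM in the wild type, with a log2 fold change of 0.49 and an adjusted p of 0.157 per the authors' deposited table. Mmp25, known from leukocytes, had a log2 fold change of 0.89 and an adjusted p of 0.204 per the authors' deposited table, at an average of 1.24 CPM. The other 4 members of this group, Mmp15, Mmp16, Mmp17 and Mmp24, lay between -0.35 and -0.15. For Mmp24, the most abundant of these 4 with an average of 24.2 CPM, the value was -0.20 (adjusted p = 0.757 per the authors' deposited table), with an interval of 0.711-fold to 1.07-fold.

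**Figure D2:**
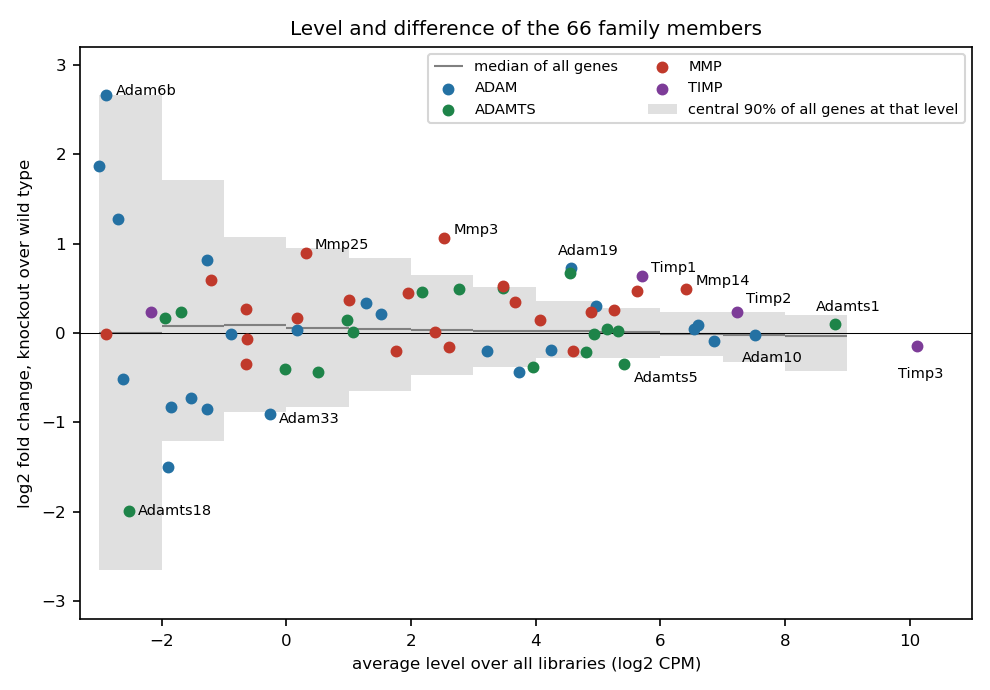
Log2 fold change (knockout over wild type) against the average level in log2 CPM for the 66 members, coloured by family, over a grey band that holds the central 90% of all genes in each unit of level. Above the band at their level lie 7 members (Timp1, Mmp3, Adam19, Mmp14, Mmp2, Adamts4 and Mmp12), below it lie 5 (Adamts5, Adamts15, Adam33, Adam21 and Adam12), and the spread of all genes widens toward low levels, where Adam6b and Adamts18 lie; no band is drawn at the level of Timp3.

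Collagenases and the remaining secreted MMPs did not pass the threshold. The collagenases Mmp13 and Mmp8 averaged 2.01 and 0.647 CPM, with log2 fold changes of 0.37 and -0.06 per the authors' deposited table. The macrophage elastase gene Mmp12 stood at 0.53 (adjusted p = 0.476 per the authors' deposited table), with an implied 13.2 CPM in the knockout and 9.12 CPM in the wild type. Matrilysin, the product of Mmp7 and an epithelial enzyme induced in injured tubules, was the MMP with the highest level per length, at 35.6 CPM per kb of exon. Mmp7 stood at a log2 fold change of 0.26 (adjusted p = 0.809 per the authors' deposited table) and an interval of 0.856-fold to 1.67-fold. For Mmp19 the value was 0.34 (adjusted p = 0.584), and for the furin-activated stromelysin-3 gene Mmp11 it was 0.24 (adjusted p = 0.857), both per the authors' deposited table. Part of the Mmp19 reading is uncertain, because 22.3% of its exon bases overlap Tmem198b on the opposite strand and the labels do not say whether strand was used. Among further members, overlaps with opposite-strand genes cover 11.5% of the exon bases of Mmp7, 13.6% of Mmp24 and 20.6% of Adam15, with the same limit. Mmp1a and Mmp1b, the mouse genes related to human interstitial collagenase, were not analysed here.

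Of the 21 MMP genes, 8 lie together in 427 kb of chromosome 9, from 7272514 to 7699585. In chromosome order these are Mmp13, Mmp12, Mmp3, Mmp10, Mmp8, Mmp27, Mmp20 and Mmp7, all on the plus strand, and the table holds 1 further gene there, AV064505. Log2 fold changes were above 0 for 7 and below 0 for 1, Mmp8, and Mmp3 was the 1 that passed the threshold. The genes on either side of Mmp3 were Mmp12 at 0.53 with an approximate standard error of 0.27, and Mmp10, the stromelysin-2 gene, at 0.60 with 0.60. Mmp10 averaged 0.434 CPM, so its interval ran from 0.668-fold to 3.42-fold. Whether Mmp3 differed from its neighbours was not tested.

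**Figure D3:**
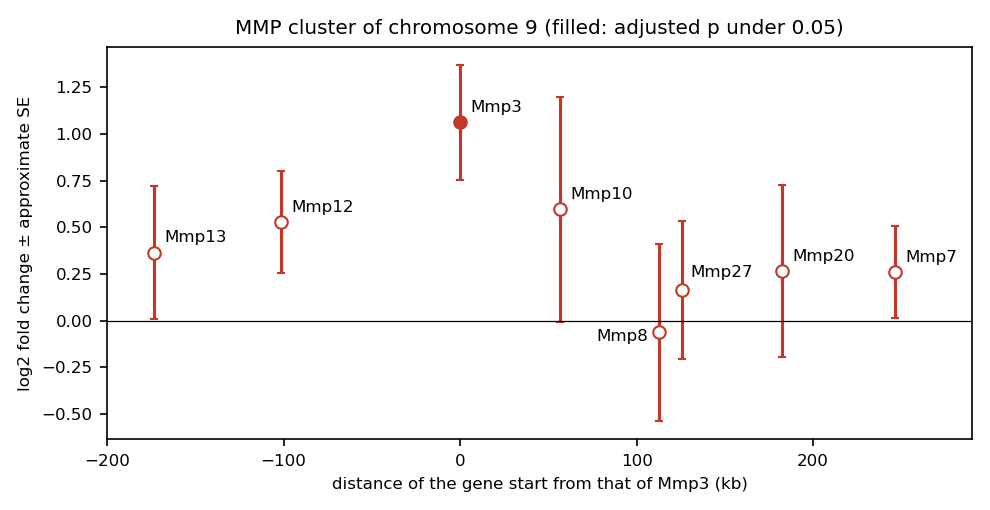
Log2 fold changes (knockout over wild type) with approximate standard errors for the 8 MMP genes of the chromosome 9 cluster, against the distance of each gene start from that of Mmp3 in kb. Mmp3, the filled point at 1.06, is the highest, and Mmp8 at -0.06 is the only point below 0.

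The TGANTCA and TATAAA letters stood together in 5 promoters of this cluster, those of Mmp3, Mmp7, Mmp10, Mmp13 and Mmp20, and in no other of the 41 members matched in the RefSeq promoter table. Of all 32851 windows, 1.21% hold both. TGANTCA without TATAAA occurs in 2 further members, Mmp12 and Adam19. The 90 bases before the start are shown for 3 of these genes, to be read against the end of the Mmp3 promoter above. Capitals mark the same 3 motifs, and all are on the plus strand of chromosome 9 (GRCm38.p6), at chr9:7502252-7502341 for Mmp10, chr9:7272424-7272513 for Mmp13 and chr9:7692000-7692089 for Mmp7.
Mmp10: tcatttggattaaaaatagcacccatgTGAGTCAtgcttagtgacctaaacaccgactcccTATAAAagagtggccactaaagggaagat
Mmp13: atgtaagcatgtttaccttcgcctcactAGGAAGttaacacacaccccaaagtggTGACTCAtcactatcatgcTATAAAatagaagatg
Mmp7: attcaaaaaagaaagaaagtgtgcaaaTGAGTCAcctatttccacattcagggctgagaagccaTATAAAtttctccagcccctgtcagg

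The AP-1 letters began 63 bases before the start in Mmp10 and Mmp7, 46 in Mmp3 and 35 in Mmp13. The nearest TATAAA began 29 bases before it in Mmp10, 26 in Mmp7, 16 in Mmp13 and 7 in Mmp3. All distances count from the RefSeq start, which was not checked against the reads. In these 4 genes, as in Mmp20, the AP-1 letters lie upstream of a TATAAA, and Mmp7 holds a further TATAAA 123 to 118 bases before its start. The log2 fold changes of the 4 ranged from 0.26 for Mmp7 to 1.06 for Mmp3. Their approximate standard errors ran from 0.25 to 0.60, and differences between them were not tested. As Dkk3 belongs to a family of Wnt modulators, the TCF letters CTTTGAT were searched as well. They occur in 3.21% of all windows and among the matched members only in Mmp7, before its second listed start. Other spellings of a TCF site were not searched.

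Among ADAM genes none passed the threshold, and the abundant shedding enzymes stayed close to 0. Adam10 and Adam17 release Notch receptors, cytokines such as tumour necrosis factor, and ligands of the EGF receptor from the cell surface. Adam17 had a log2 fold change of 0.05 with implied levels of 95.1 CPM in the knockout and 92.0 CPM in the wild type, and an interval of 0.891-fold to 1.20-fold. Adam10 averaged 183 CPM and had a log2 fold change of -0.02, with an interval of 0.829-fold to 1.17-fold. For Adam9 and Adam15, whose average CPM lay between those of Adam10 and Adam17, the values were -0.09 and 0.09, with intervals of 0.799-fold to 1.10-fold and 0.895-fold to 1.26-fold. The lowest end of these 4 intervals was 0.799-fold for Adam9 and the highest 1.26-fold for Adam15. Differences inside each interval remain possible, and the ends are not limits of detection.

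The ADAM gene with the smallest p was Adam19, whose product is found in mesenchymal cells and cleaves neuregulin. Its implied level was 29.5 CPM in the knockout and 17.8 CPM in the wild type, with a log2 fold change of 0.73 and an adjusted p of 0.111 per the authors' deposited table. Adam12, a relative that activated fibroblasts express, pointed the other way at -0.44 (adjusted p = 0.563 per the authors' deposited table), with an implied 11.3 CPM in the knockout and 15.3 CPM in the wild type. Adam33 stood at -0.91 (adjusted p = 0.429 per the authors' deposited table) but averaged only 0.835 CPM. Adam12 lies on chromosome 7, 21.7 Mb from Dkk3, as do Mmp21 at 21.5 Mb, Adam8 at 27.8 Mb and Adamts17 at 45.0 Mb, and all 4 were below 0 without passing the threshold. Linked variants of the knockout chromosome and the effect of Dkk3 loss cannot be told apart for these genes.

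Of the 14 other ADAM genes, most of them known mainly from testis or the nervous system, 9 averaged under 1 CPM. Adam11, a member that brain expresses and whose product lacks protease activity, was an exception at 31.2 CPM, with a log2 fold change of 0.30 and an adjusted p of 0.510 per the authors' deposited table. Adam21 stood at a log2 fold change of -1.50 (adjusted p = 0.512 per the authors' deposited table) at 0.269 CPM. The highest value of all 66 members was that of Adam6b, 2.66 with an approximate standard error of 1.62 and an adjusted p of 0.609 per the authors' deposited table, at 0.135 CPM. Adam6b lies on chromosome 12, 7.32 kb from Ighd1-1 in the immunoglobulin heavy chain locus, and it shares 29.6% of its stretches of 50 nt with other transcripts, mostly Adam6a. In the same locus the alpha constant gene Igha, listed as Igh-VJ558, had a log2 fold change of 4.52 and an adjusted p of 1.37e-18 per the authors' deposited table. Their relation was not tested.

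The ADAMTS proteases also gave no call, with the proteoglycan-cutting enzymes on both sides of 0. Adamts5, a main aggrecanase and versicanase, had implied levels of 37.9 CPM in the knockout and 48.1 CPM in the wild type, a log2 fold change of -0.34 and an adjusted p of 0.166 per the authors' deposited table. Adamts15 stood at -0.38 (adjusted p = 0.269 per the authors' deposited table), with an implied 13.5 CPM in the knockout against 17.6 CPM in the wild type. The inducible aggrecanase gene Adamts4 pointed upward at 0.68 (adjusted p = 0.472 per the authors' deposited table), with an implied 28.7 CPM in the knockout against 18.0 CPM in the wild type. Adamts1, which cuts versican and aggrecan, was the most abundant protease of all members at 84.1 CPM per kb of exon. It had a log2 fold change of 0.10 with an interval of 0.884-fold to 1.30-fold. Adamts1 and Adamts5 are neighbours on chromosome 16, 53.1 kb apart, and a difference between them was not tested.

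The procollagen N-proteinases, which trim the amino end of fibrillar procollagens, gave no call and had point estimates from -0.01 to 0.14. Adamts2, at 30.5 CPM, had a log2 fold change of -0.01 with an interval of 0.768-fold to 1.29-fold. Adamts3 and Adamts14 averaged 1.97 and 2.10 CPM and stood at 0.14 and 0.01. Their intervals were wider, at 0.734-fold to 1.66-fold and 0.678-fold to 1.49-fold. Of the remaining ADAMTS genes, Adamts7 and Adamts12, which degrade cartilage oligomeric matrix protein, had log2 fold changes of 0.50 each, with adjusted p of 0.491 and 0.657 per the authors' deposited table. Adamts6 stood at 0.46 (adjusted p = 0.522 per the authors' deposited table) at 4.53 CPM. Adamts10, a microfibril-associated member and at 35.6 CPM the most abundant of this group in CPM, was at 0.05. The lowest value among all members was that of Adamts18, -1.99 with an approximate standard error of 1.18 at 0.174 CPM, and its adjusted p was 0.609 per the authors' deposited table.

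TIMPs took 3 of the 4 highest places in the order of average levels per kb of exon. Timp3 had rank 1 among the 66 members at 136 CPM per kb, Timp1 had rank 3 at 58.8 and Timp2 rank 4 at 38.4, while Timp4 had rank 64 at 0.0376. Adamts1 stood between Timp3 and Timp1, and Adam10 (37.2) and Mmp7 (35.6) followed Timp2. Without values per mouse, it cannot be said which of these neighbours differ beyond their spread. Exon length here is the union of all annotated exons, which understates genes with long, rarely used exons.

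Only Timp1 of the TIMPs passed the threshold. Timp2, which also takes part in the activation of pro-Mmp2, had implied levels of 162 CPM in the knockout and 137 CPM in the wild type, a log2 fold change of 0.23 and an adjusted p of 0.699 per the authors' deposited table. Timp3, the matrix-bound member that also inhibits Adam17, stood at -0.15 with implied levels of 1054 and 1168 CPM and an interval of 0.697-fold to 1.17-fold. Timp4 averaged 0.222 CPM, and its interval of 0.338-fold to 4.11-fold allows no statement. The intervals of Timp1 and Timp2 overlapped, and a difference between the TIMPs was not tested.

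Timp1, Timp3 and Timp4 lie inside the synapsin genes Syn1, Syn3 and Syn2, on the opposite strand. Timp3 shares 1733 exon bases, 21.3% of its exons, with Syn3, and Timp4 shares 90 with Syn2. Syn3, known as a neuronal gene, was listed at 537 CPM with a log2 fold change of -0.20 per the authors' deposited table, beside 1111 CPM for Timp3. If strand was not used in counting, reads of the pair cannot be told apart, so the level of Timp3 is uncertain. No exon of another annotated gene overlaps those of Timp1 or Mmp3.

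Other proteolytic systems were compared through 6 gene lists, of which 66 genes were measured and 4 rose, beside 1.17% of all genes that were called higher. In the plasminogen system, whose product plasmin activates pro-MMPs, 2 of 9 genes rose and none fell. Serpine2, which encodes the protease inhibitor nexin-1, showed a log2 fold change of 0.93 (adjusted p = 0.0334) per the authors' deposited table. Among ADAMTS-like proteins, which resemble ADAMTS enzymes but have no protease domain, 2 of 7 rose and none fell. These were the microfibril-associated gene Thsd4 at 0.54 (adjusted p = 0.0445) and Adamtsl3 at 2.08 (adjusted p = 0.00533) per the authors' deposited table. Adamtsl3 averaged 0.696 CPM and lies on chromosome 7, 29.5 Mb from Dkk3. Linked variants of the knockout chromosome and the effect of Dkk3 loss cannot be told apart for this gene. In either direction, 2.06% of all genes were called, and 1.42% without chromosome 7. No gene of these lists was called with the F distribution, where the adjusted p was 0.130 for Adamtsl3, 0.233 for Serpine2 and 0.252 for Thsd4. Serpine2 (0.0572) and Thsd4 (0.0734) also lost the call with the inflation factor, and Thsd4 further without chromosome 7 (0.0572), after centring (0.0523) and with the 1.5-fold minimum.

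No member of the other 4 lists passed in edgeR's test, with the chi-square or the F distribution. At an unadjusted p under 0.05 in that test, 5.91% of all genes were higher and 4.71% lower. Of 11 cathepsin and cystatin genes, 9 were above 0, with a median of 0.23 and 3 at an unadjusted p under 0.05, all higher. The collagen-degrading cathepsin K gene Ctsk was at 0.58 (adjusted p = 0.0966) and the macrophage cathepsin gene Ctss at 0.54 (adjusted p = 0.185) per the authors' deposited table. Of 9 astacins, pappalysins and related genes, 1 was higher and 2 lower at an unadjusted p under 0.05. The meprin subunit gene Mep1b, a proximal tubule enzyme, was at -0.65 (adjusted p = 0.0740) and Adamdec1 at -1.90 (adjusted p = 0.220) per the authors' deposited table. Of 13 activators and inhibitors, 1 was higher and 1 lower at an unadjusted p under 0.05. Rhbdf2, which encodes an iRhom that carries Adam17 to the cell surface, was at 0.40 (adjusted p = 0.0918) and the proprotein convertase gene Pcsk6 at -0.67 (adjusted p = 0.145) per the authors' deposited table. Pcsk6 lies on chromosome 7, 46.1 Mb from Dkk3, with the same limit as Adamtsl3. Of 17 genes of shed substrates, 1 was higher and 1 lower at an unadjusted p below 0.05. The tumour necrosis factor receptor gene Tnfrsf1b at 0.46 (adjusted p = 0.113) and the betacellulin gene Btc at -0.43 (adjusted p = 0.389) had the smallest p per the authors' deposited table.

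**Figure D4:**
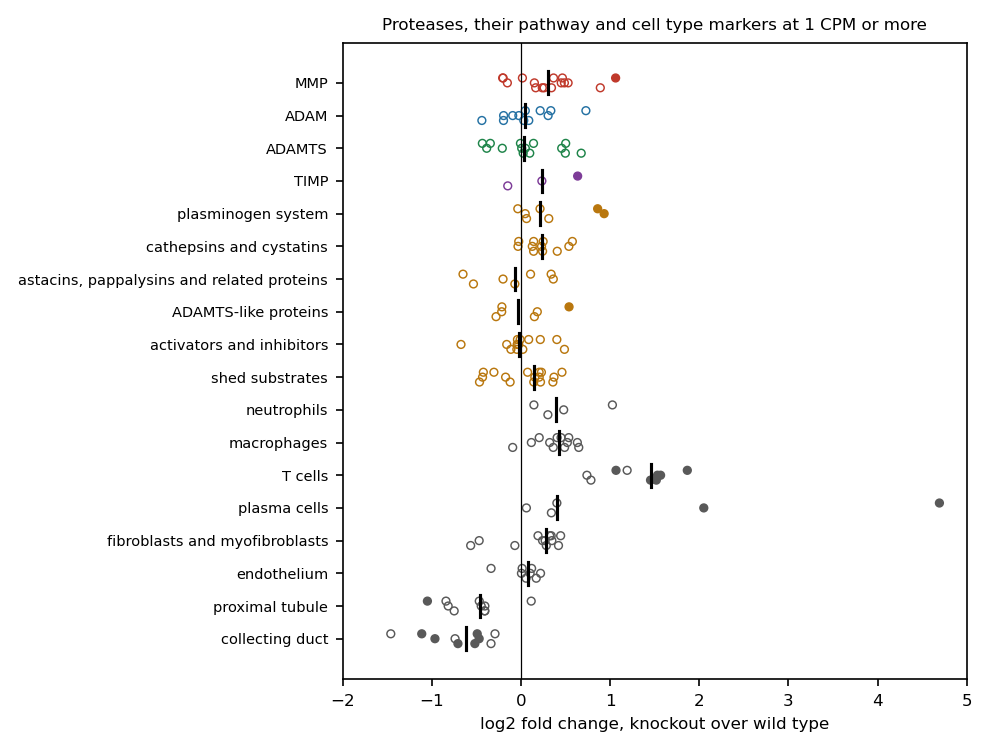
Log2 fold changes (knockout over wild type) of genes at 1 CPM or more in the 4 protease and inhibitor families (coloured), 6 pathway lists (ochre) and 8 cell type marker lists (grey), with black bars for medians and filled points for an adjusted p under 0.05. T cell and plasma cell markers reach the highest values, collecting duct markers lie wholly below 0, and the MMP median is 0.30.

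Markers of T cells, plasma cells, proximal tubule and collecting duct included called genes, those of 4 other cell types did not, and their part in the protease values was not tested. Of all genes, 1.17% were called higher and 0.890% lower in edgeR's test. At an unadjusted p under 0.05 in that test, 5.91% of all genes were higher and 4.71% lower. All 9 T cell markers were above 0 with 6 called and a median of 1.45. Their summed implied level was 53.9 CPM in the knockout against 24.0 CPM in the wild type. Of 12 macrophage markers, 11 were above 0 with a median of 0.43 and none called, 7 of them at an unadjusted p below 0.05 by edgeR's test, and they summed to 1857 CPM in the knockout against 1315 CPM in the wild type. The 10 neutrophil markers, of which 4 reached 1 CPM, had a median of 0.39 with none called and 2 at an unadjusted p under 0.05, and their sums were 24.0 and 18.1 CPM. Of 12 fibroblast and myofibroblast markers, 9 were above 0 with a median of 0.28 and none called, 3 being higher and 1 lower at an unadjusted p under 0.05, and they summed to 2779 against 2282 CPM. Among the 6 plasma cell markers 2 were called, both higher, with sums of 444 and 280 CPM. Most of both sums came from Xbp1, which averaged 242 CPM with a log2 fold change of 0.34 and was not called. No endothelial marker of 8 reached an unadjusted p of 0.05, and the sums were 414 and 389 CPM. Of 10 proximal tubule markers 1 fell and 9 were below 0, with sums of 2993 against 4376 CPM. Of 10 collecting duct markers 6 fell and all were below 0, with sums of 303 against 463 CPM. Among those that fell, Scnn1g and Scnn1b lie on chromosome 7, 9.58 and 9.71 Mb from Dkk3. Linked variants of the knockout chromosome and the effect of Dkk3 loss cannot be told apart for them. With the F distribution 0.440% of all genes were called in either direction. The called markers were then 1 of T cells (Cd3e), 2 of plasma cells (Igj and Mzb1), 2 of collecting duct (Slc26a4 and Aqp3) and none of the other lists. Proximal tubule genes were thus present as labelled for whole kidney, with the lowest of the 10 at 61.7 CPM.

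The deposited Gene Ontology sheet gives numbers of genes for related terms, and its headers name no threshold for higher or lower. At an adjusted p under 0.05 in edgeR's test, 1.17% of all genes were higher and 0.890% lower. In the authors' deposited table, 2 of 89 genes of metalloendopeptidase activity were counted as higher and 0 as lower. Of 10 genes of metalloendopeptidase inhibitor activity, 1 was counted as higher and 1 as lower there, and of 14 genes of extracellular matrix disassembly none was counted on either side. It counts 1 of 16 genes of collagen catabolic process and 1 of 33 of membrane protein ectodomain proteolysis as higher and none as lower, and of 162 genes of extracellular matrix organization 3 as higher and 1 as lower, per the authors' deposited table. Of the 66 members, 2 stand on the authors' sheet of Wnt-related genes, Mmp3 and Mmp11.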

How the data were processed

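RNA of 6 whole kidneys was sequenced as single reads of 50 nt, 3 samples per genotype, per the labels. The mm10 build and edgeR are named in the submitters' processing notes. For the aligner, the counter, the use of strand and the low-count filter, nothing was given in the sources used here. Per the file headers, the values that the authors deposited for each of 18421 genes are the log2 fold change between genotypes, the average level in log2 CPM, the likelihood-ratio score and the raw and adjusted p-value. The lowest average level listed was 0.125 CPM. Depth per library is unknown. For all genes, the deposited p-value was that of the score under chi-square with 1 degree of freedom within a relative 1e-04, and the adjusted p-values equalled Benjamini-Hochberg values over the whole table. The direction was read from Dkk3, which is negative.

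Calls required an adjusted p below 0.05 in edgeR's likelihood-ratio test across all genes, as the authors ran it. A quasi-likelihood test had been planned for the case of counts per sample, which the files used here do not hold. The standard error was the log2 fold change divided by the square root of the score, and the interval spanned 95% of a normal distribution. Implied genotype levels solve the average CPM and the fold change for equal group weights. Positions, exon lengths and overlaps came from GENCODE vM21 by Ensembl identifier, found for all 66 members, and shared stretches from its transcripts. Promoters came from RefSeq (GRCm38.p6), matched by symbol for 41 members. Protein motifs were not examined. The calling code was tested on simulated normal estimates with known standard errors, which cannot test the null distribution at this sample size. Python 3.11.15, pandas 2.3.3, numpy 2.4.6, scipy 1.17.1 and matplotlib 3.10.9 were used.

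The members and lists were chosen with earlier results of these data known. Named were Dkk3, called members, all TIMPs, the 3 smallest p and the highest level of each role group, the highest and lowest log2 fold change at 1 CPM or more, called genes and the 2 smallest p of each pathway list. The rule also picks 2 genes of each marker list, and those lists are given here as wholes. Xbp1 was added for its share of a sum, and Scnn1g and Scnn1b for their position. Other members were named after their values were seen. The values of 1 gene of the pathway lists are not reported here, and the counts include it.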

Additional observations from a re-analysis of the deposited data

How the results depend on the processing

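The alternatives were an adjusted p under 0.1, a fold change of at least 1.5, genes at 1 CPM or more, an F distribution with 1 and 14 degrees of freedom (4 residual and 10 assumed as prior), scores divided by their inflation factor, chromosome 7 left out and centring on the median of 0.01. The count of members that rose, 2, went to 0 with the F distribution and 1 with the inflation factor, and the count that fell was 0 throughout. The 4 called genes of the pathway lists became 7 at an adjusted p under 0.1 (3.14% of all genes called) and 0 with the F distribution (0.440%). They became 2 with the inflation factor (1.56%) and 2 without chromosome 7 (1.42%). The count was 3 with a fold change of at least 1.5 (1.73%), 3 at 1 CPM or more (2.52%) and 3 after centring (2.06%). The median log2 fold change of all members was 0.09, against 0.14 for those at 1 CPM or more and 0.083 after centring. Only centring alters the fold changes themselves, and only Timp1 and Mmp3 had a call to lose, so the following count was largely fixed beforehand. Of 237 values of 35 named members under the alternatives, 233 kept their direction and their side of the threshold and 3 lost the call. The remaining 1, Adamts14, changed sign on centring, to -0.0016. Over the 7 alternatives the adjusted p ran from 0.0187 to 0.200 for Timp1 and from 0.0296 to 0.233 for Mmp3. No paired analysis was possible because the files used here hold no values per sample, and leaving out single replicates and other size factors were not run for the same reason. Low levels limit the 21 members under 1 CPM.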
